A study of Drosophila melanogaster with 30 samples.

Results

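The Hox genes labial (lab), proboscipedia (pb), Deformed (Dfd), Sex combs reduced (Scr), Antennapedia (Antp), Ultrabithorax (Ubx), abdominal-A (abd-A) and Abdominal-B (Abd-B) were followed in whole Drosophila melanogaster embryos. They were chosen by symbol, and all 8 were found among the 14040 genes of the stage 16 (St16) table and the 14077 of the table for the later stage, when the trachea fill with air (AFT). Transcripts were measured by RNA sequencing in 30 samples, with 5 genotypes at each stage and 3 biological replicates per genotype and stage. Every genotype carried 1 copy of elav-Gal4, a driver of transgenes in neurons that is active mostly after their last division. In the control (the driver alone) it stood over a wild-type OregonR chromosome, with no transgene. The other genotypes carried UAS-col-HA (called col here, for collier), UAS-myc-lbe (lbe, for ladybird early), both of these on 1 chromosome (col + lbe), or UAS-Flag-Ap with UAS-eya-HPC4 (ap + eya, for apterous and eyes absent). Each collection pooled more than 200 embryos. RNA came from the whole embryo, so a change confined to neurons is diluted by every other tissue, and fewer cells of a type cannot be told apart from less RNA per cell.

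Hox genes encode homeodomain transcription factors that give body segments their identity from head to tail. In flies they lie in a pair of clusters whose gene order largely follows the order of the segments they act in. The Antennapedia complex holds lab, pb, Dfd, Scr and Antp, for head and thorax. The bithorax complex holds Ubx, abd-A and Abd-B, for posterior thorax and abdomen. In the embryonic nerve cord Hox genes decide which segments form a given neuron. In thoracic segments Antp acts with its cofactors homothorax and extradenticle upstream of col in the lineage that makes Apterous neurons, and the bithorax genes end the equivalent abdominal lineage early.

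The values are the authors' means in TPM, a transcript share that corrects for transcript length and scales each library to a fixed sum. There is 1 mean per gene, genotype and stage. No difference below could therefore be set against the spread between replicates, none has a test, and "higher" and "lower" describe these means. The labels give 30M to 50M reads per sample, but the reads behind a single value are unknown. Fold changes were taken on the log2(TPM + 1) scale, where the change of a low gene comes out too small. A gene entered a comparison at 1 TPM or more in either group, which all 8 Hox genes met in every comparison. Limits of 1.5-fold and 2-fold on that scale decided which genes were called apart. The driven genes were higher in their own genotypes: col (listed as kn), lbe, ap and eya were past 2-fold in each genotype that carried their transgene, at both stages. Of the listed markers of neurons, glia, muscle, gut and fat body, and epidermis that were in the tables, none was at 0 in all 5 means of a stage.

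All 8 genes lie on chromosome arm 3R (BDGP6.54 annotation; the tables hold no coordinates). The Antennapedia complex genes are lab (FBgn0002522, 6661427 to 6678590, minus strand), pb (FBgn0051481, 6707800 to 6742063, minus), Dfd (FBgn0000439, 6791836 to 6802428, plus), Scr (FBgn0003339, 6823120 to 6849981, minus) and Antp (FBgn0260642, 6896253 to 6999228, minus). The bithorax complex genes are Ubx (FBgn0003944, 16656623 to 16734426), abd-A (FBgn0000014, 16807214 to 16830049) and Abd-B (FBgn0000015, 16927212 to 16972236), all on the minus strand. Dfd is the shortest gene, with a span of 10.6 kb and 1 annotated transcript. Antp is the longest at 103 kb, with 12 transcripts and an intron of 60.1 kb, and Ubx spans 77.8 kb with an intron of 73.7 kb. Abd-B has 10 transcripts, the shortest 3078 nt and the longest 8184 nt. One TPM value per gene does not separate such transcripts. Antp overlaps the protein-coding gene CG46458 on the same strand, which is not a row of either table, so reads of that gene may be counted in the Antp value.

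At St16 the trunk genes were the most abundant. The abdominal gene abd-A, which sets the identity of middle abdominal segments, was at 61.2 TPM for the driver alone, 59.8 under col, 54.8 under lbe, 57.8 under col + lbe and 62.4 under ap + eya. The thoracic gene Antp was at 34.1, 34.5, 35.3, 37.8 and 37.8 TPM in the same order. In all 5 genotypes abd-A was highest and Antp second. Abd-B, which acts in the last abdominal segments, was at 33.8, 33.1, 32.3, 31.8 and 33.7 TPM. Ubx, which acts in the posterior thorax and anterior abdomen, was at 32.2, 28.7, 34.9, 35.5 and 36.9 TPM. These levels lay close together, and Abd-B was above Ubx in the control and col, below it in the other 3 genotypes.

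The remaining genes were lower at St16. Scr, which acts in the labial segment, the prothorax and the salivary gland, was at 15.0 TPM for the driver alone, 14.6 under col, 17.8 under lbe, 17.9 under col + lbe and 17.4 under ap + eya. The most anterior gene, lab, also acts in the midgut, and was at 20.4, 16.4, 17.3, 16.8 and 16.7 TPM. In the control and col lab was above Scr, and in the other 3 genotypes below it. Dfd, which acts in the mandibular and maxillary segments, was at 9.28, 8.07, 8.62, 7.28 and 7.34 TPM. The mouthpart gene pb was lowest in every genotype, at 3.76, 2.74, 2.84, 2.00 and 3.09 TPM. Together the 8 genes came to between 198 and 215 TPM, of which the bithorax genes made up 59.9% to 61.7%.

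**Figure D1:**
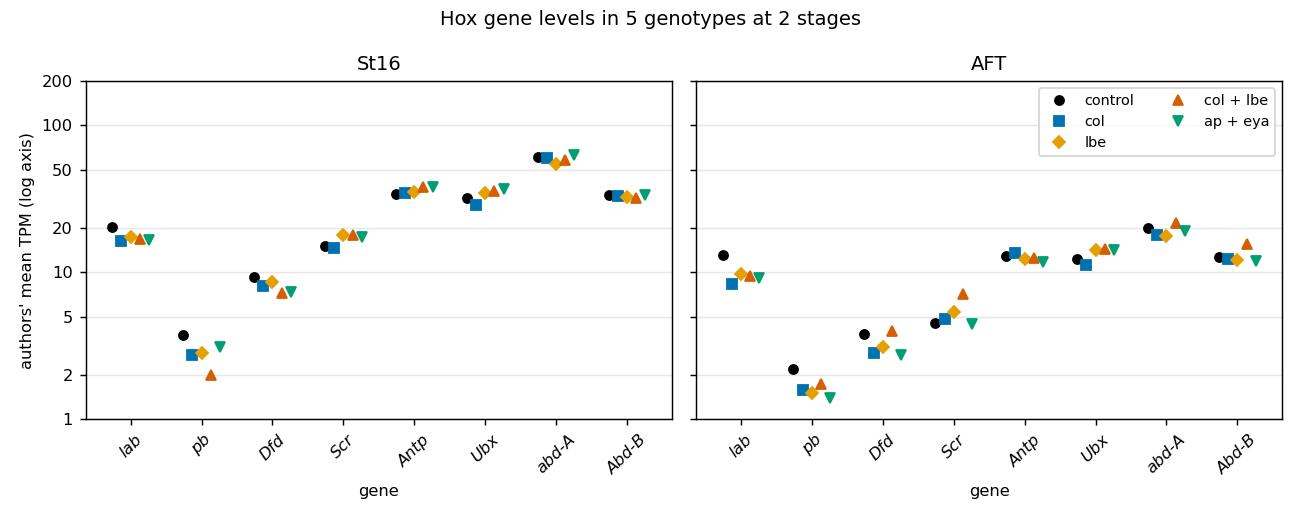
Level of each Hox gene as the authors' mean TPM (log axis) in the 5 genotypes at St16 (left) and AFT (right); each point is 1 mean, with no error available. At St16 abd-A stands highest, between 54.8 and 62.4 TPM, and pb lowest, between 2.00 and 3.76; at AFT abd-A lies between 17.6 and 21.7 TPM.

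At AFT abd-A was again highest, at 20.1 TPM for the driver alone, 18.0 under col, 17.6 under lbe, 21.7 under col + lbe and 19.0 under ap + eya. Antp was at 12.9, 13.6, 12.3, 12.5 and 11.8 TPM in that order of genotypes. Ubx was at 12.3, 11.2, 14.1, 14.4 and 14.2 TPM. The ranks of Antp, Ubx, Abd-B and lab changed from genotype to genotype. Abd-B was at 12.8, 12.4, 12.1, 15.6 and 11.9 TPM. For lab the means were 13.1, 8.40, 9.76, 9.43 and 9.14 TPM, second among the 8 in the control and rank 5 in every misexpression. Scr, Dfd and pb held the last 3 ranks in all 5 genotypes. Scr was at 4.50, 4.81, 5.41, 7.17 and 4.45 TPM, with col + lbe above the other 4. Dfd was at 3.83, 2.84, 3.12, 4.00 and 2.73 TPM, and pb at 2.19, 1.58, 1.51, 1.73 and 1.40 TPM. The sum over the 8 genes was 72.8 to 86.5 TPM.

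Every Hox gene was lower at AFT than at St16 in every genotype, a comparison across 2 separately made tables. So were 62.2% of all genes for the driver alone, 61.6% under col, 62.7% under lbe, 57.8% under col + lbe and 64.1% under ap + eya. For lab and pb the difference was near that of many genes. In the control 40.2% of all genes were as low as lab or lower, and 40.8% as low as pb or lower. In col + lbe pb differed by -0.14, where the median of all genes was -0.21. The summed Hox level at AFT was 39.0% of that at St16 for the driver alone, 36.8% under col, 37.2% under lbe, 41.8% under col + lbe and 34.7% under ap + eya. In the control, 6 of 8 Hox genes were at least 2-fold lower, where 24.8% of 10510 genes were. The count was also 6 in col (25.8% of all genes), lbe (26.9%) and ap + eya (28.5%), and 4 in col + lbe (20.0%). The median difference of the 8 genes was -1.33 for the driver alone, -1.28 under col, -1.30 under lbe, -1.10 under col + lbe and -1.37 under ap + eya. All genes had medians of -0.37, -0.36, -0.39, -0.21 and -0.45. After rescaling by the median ratio, a common factor per column, 2 of 8 were 2-fold lower for the driver alone, 2 under col, 3 under lbe, 4 under col + lbe and 3 under ap + eya. On that rescaled scale 16.4%, 17.3%, 17.6%, 15.8% and 17.1% of all genes were 2-fold lower, in the same order. Sequencing was single-end with 50 bp reads for St16 and paired-end with 150 bp reads for AFT, so stage and read layout cannot be told apart.

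The size of the stage difference varied among the 8. Scr, Antp, Ubx and abd-A were past 2-fold in all 5 genotypes, with abd-A 2.67 to 3.33 times as high at St16 as at AFT in plain TPM, and Scr 2.49 to 3.91 times. For Antp the ratio was 2.53 to 3.21, and for Ubx 2.46 to 2.61, the narrowest range over genotypes among the 8. Abd-B and Dfd were past 2-fold in 4 genotypes, the exception being col + lbe for both, with differences of -0.99 and -0.73. By contrast lab was past 2-fold in none, with ratios of 1.55 to 1.95, and pb in none on the log2(TPM + 1) scale, with ratios of 1.16 to 2.21. The joint share of the 3 head genes lab, pb and Dfd in the Hox sum was larger at AFT, at 23.4% against 15.9% in the control. It was 17.6% against 13.7% in col, 19.0% against 14.1% under lbe, 17.5% against 12.6% under col + lbe and 17.8% against 12.6% under ap + eya. In the control lab was at 16.1% against 9.71%, pb at 2.68% against 1.79% and Dfd at 4.69% against 4.43%. The share of Dfd was smaller at AFT in col (3.90% against 4.08%) and lbe (4.11% against 4.22%). The level of pb, 1.40 to 3.76 TPM, was close to the pseudocount of 1.

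**Figure D2:**
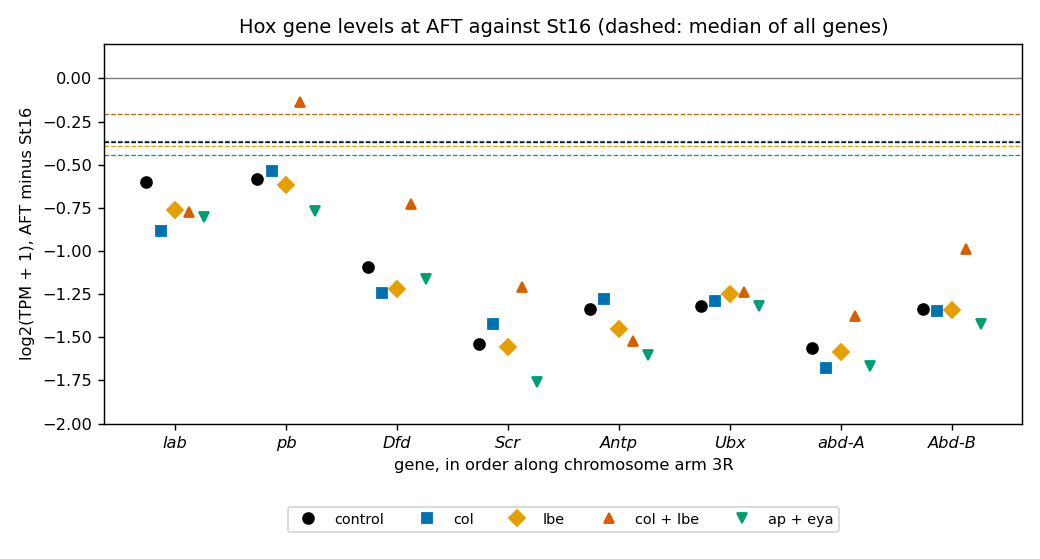
Difference of log2(TPM + 1), AFT minus St16, for each Hox gene in chromosomal order; symbols are the 5 genotypes and dashed lines the median of all genes in each genotype. The genes from Scr to abd-A lie between -1.76 and -1.21, while lab lies between -0.89 and -0.60.

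The genes inside the 2 complexes that are not Hox genes gave other values. Of 16 other Antennapedia complex genes in the tables, 9 reached 1 TPM for the stage comparison in the control. Among these, 5 were at least 2-fold higher at AFT and 2 lower, where 19.0% and 24.8% of all genes were. The 7 cuticle protein genes Ccp84Aa to Ccp84Ag lie between lab and pb. In the control Ccp84Ab was at 2.72 TPM in the St16 mean against 127 in the AFT mean, and Ccp84Aa at 4.21 and 165, while Ccp84Ac went from 201 to 9.07. These genes belong to a single family of similar sequence, so their values are uncertain. Ama, which encodes a secreted immunoglobulin-domain protein and lies between pb and Dfd, was at 93.8 TPM in the St16 mean against 2.64 in the AFT mean. The genes named from this region were chosen after their values were seen. The non-Hox homeobox genes of this complex, zen, zen2, bcd and ftz, which act in the early embryo, were under 1 TPM in every mean except bcd in col + lbe, which was just above it at both stages. In the bithorax complex CG31275, Glut3 and lncRNA:TS16 were under 1 TPM in the control. Its noncoding RNA genes bxd, iab-4 and iab-8 were listed at 0 in all 10 means. In the control lncRNA:TS16 was also at 0 at both stages, as were 7SLRNA:CR42652 and 7SLRNA:CR32864 of the Antennapedia complex. Whether noncoding RNA was counted in these values was not tested, so a 0 here does not show that a transcript was absent.

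The next comparison asked whether a Hox gene differed between each misexpression and the control. At St16, 0 of 8 Hox genes were 1.5-fold apart under col (2.15% of all genes), 0 under lbe (2.13%), 1 under col + lbe (6.57%; 4.99% of all genes were past the limit on the lower side, as was this gene) and 0 under ap + eya (4.09%). At AFT the counts were 1 under col (12.7%, and 8.20% on the lower side), 0 under lbe (12.5%), 0 under col + lbe (19.2%) and 0 under ap + eya (12.4%). Counts of 0 or 1 in 8 are near these background shares. A 2-fold difference was reached by 0 of 8 Hox genes in each of these comparisons. Of all genes, 0.623% were so at St16 for col, 0.530% for lbe, 2.41% for col + lbe and 1.61% for ap + eya. The shares at AFT were 4.29%, 3.47%, 7.35% and 4.45%. No Hox gene was in any of the authors' 8 deposited lists of genes at least 2-fold apart, which held 125 to 1075 genes. These lists rest on the same data, so this absence adds nothing to the counts above. Each stage has a single control mean, shared by its 4 comparisons, which are therefore not independent.

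**Figure D3:**
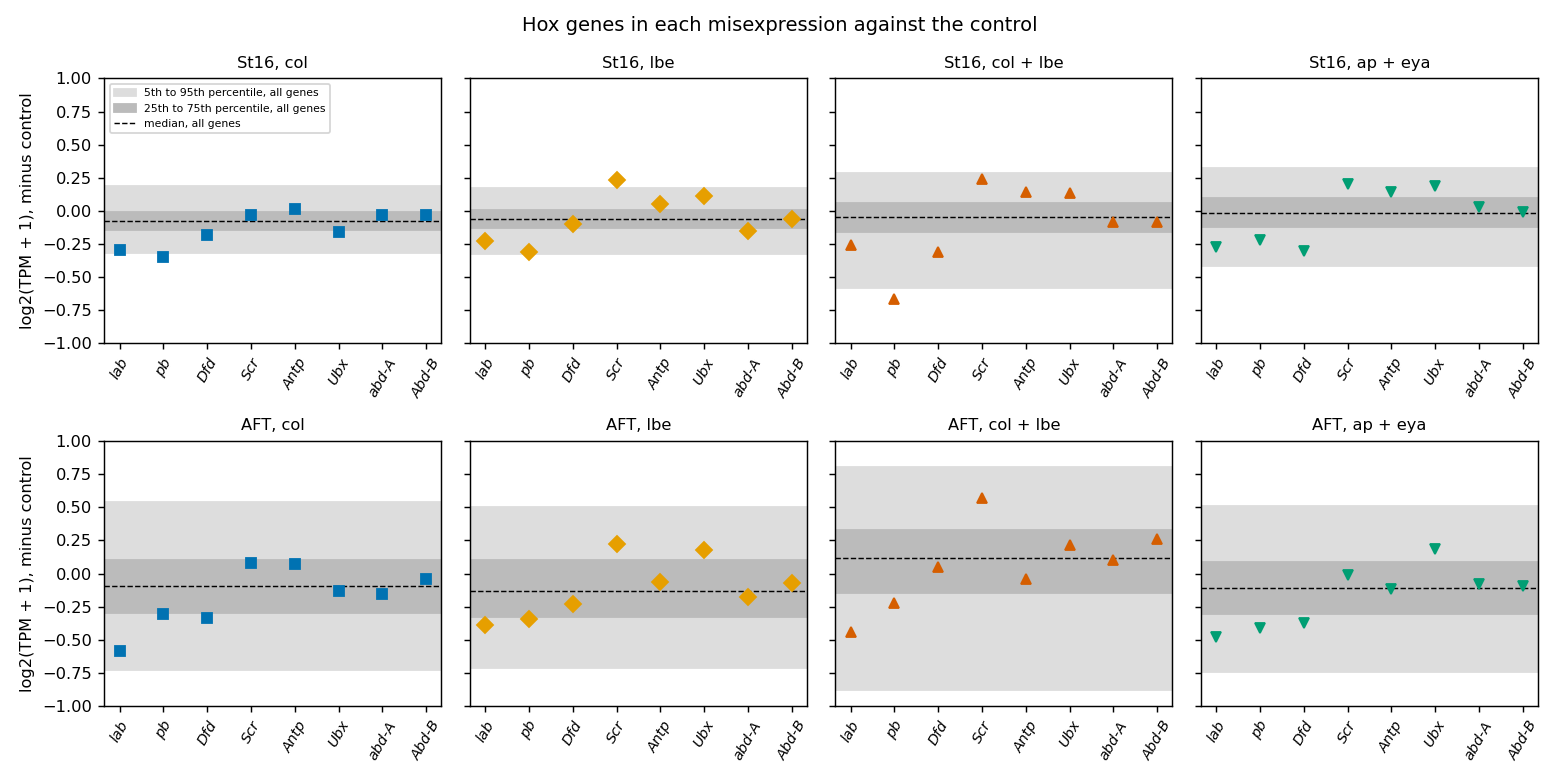
Difference of log2(TPM + 1) from the control for the 8 Hox genes in the 4 misexpressions at St16 (top) and AFT (bottom); grey bands give the 5th to 95th and 25th to 75th percentiles of all genes and the dashed line their median. Scr in col + lbe at AFT (0.57) and lab in col at AFT (-0.59) stand furthest from 0 at that stage.

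The gene lab was lower than the control in all 4 misexpressions at AFT, as was pb. Of all genes, 63.1% were lower than the control under col, 64.7% under lbe, 37.0% under col + lbe and 64.7% under ap + eya. The level of lab was 13.1 TPM in the control, compared with 8.40 to 9.76 in the others. The fold change was -0.59 in col, past 1.5-fold, and -0.39 under lbe, -0.44 under col + lbe and -0.48 under ap + eya. Of all genes, 12.5% were at least as far from 0 as lab in col. At St16 lab was at 20.4 TPM in the control, where the others had 16.4 to 17.3, with fold changes of -0.30, -0.23, -0.26 and -0.27. With the median of the other 4 genotypes as the reference, lab at AFT was at -0.17 under col, 0.07 under lbe, -0.00296 under col + lbe and -0.06 under ap + eya. Tissue markers also differed from the control at AFT. Of 9 epidermis and cuticle markers, 6 were past 1.5-fold lower under col, 6 under lbe, 7 under col + lbe and 6 under ap + eya, where 8.20%, 8.63%, 9.17% and 8.20% of all genes were. Of 8 gut and fat body markers, 5, 4, 5 and 4 were past 1.5-fold higher in that order, where 4.45%, 3.89%, 9.98% and 4.20% of all genes were. Past 1.5-fold lower were 1, 1, 0 and 2 of these 8 markers. The gut and fat body list summed to 903 TPM in the control against 1339 to 3422 elsewhere. At St16 that sum was 132 TPM in the control against 111 to 119 elsewhere. The cuticle list summed to 20319 TPM in the AFT control, with 10982 to 20928 over the 5 genotypes. No marker of either list was at 0 in every mean, and the part of these tissues in the lab values was not tested.

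The other head genes were pb and Dfd. In col + lbe at St16 pb was at 2.00 TPM against 3.76 in the control (-0.67), the largest Hox difference of that stage. It was at 2.74 in col (-0.35), 2.84 in lbe (-0.31) and 3.09 in ap + eya (-0.22). Against the median of the other 4 genotypes pb in col + lbe was at -0.40, inside 1.5-fold. At AFT pb in col + lbe was at 1.73 TPM, above the other misexpressions. Dfd in col + lbe was at -0.31 at St16 and 0.05 at AFT, and in ap + eya at -0.30 and -0.37.

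Scr was the Hox gene furthest above the control. In col + lbe at AFT it was at 7.17 TPM against 4.50, a TPM ratio of 1.59, and 0.57 on the log2(TPM + 1) scale, just inside the 1.5-fold limit of 0.585. With no pseudocount it was past that limit, at 0.67. Scr was at 0.48 after median-ratio rescaling and 0.42 after quantile normalisation, and the lowest value of any setting tried was 0.36. On the log2(TPM + 1) scale all genes had a median of 0.11 in this comparison, and 20.0% of them were at least as far from 0 as Scr. Scr in col + lbe was also above the means of col (0.49), lbe (0.35) and ap + eya (0.58), where all genes had medians of 0.19, 0.21 and 0.20. In these direct comparisons 0 of 8 Hox genes were past 1.5-fold, where 12.3% of all genes were against col, 16.7% against lbe and 14.9% against ap + eya. At St16 Scr was at 17.8 TPM under lbe (0.24), 17.9 under col + lbe (0.24) and 17.4 under ap + eya (0.20), and at 14.6 in col (-0.03). Ubx had a like order at St16, with 34.9 to 36.9 TPM in those 3 genotypes, 32.2 in the control and 28.7 in col. At AFT Ubx was again lowest in col, at 11.2 TPM, with 12.3 in the control and 14.1 to 14.4 in the others.

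Within each stage, the narrowest ranges over genotypes were those of Abd-B and then Antp at St16, and of Antp at AFT. Abd-B at St16 lay between 31.8 and 33.8 TPM, a ratio of highest to lowest of 1.06, and 95.7% of all genes had a range over the 5 genotypes at least as wide. Antp ranged over a ratio of 1.11 at St16 and 1.15 at AFT, where 78.2% and 94.4% of genes had a range at least as wide. In col, Antp was at 0.01 at St16 and 0.07 at AFT. For abd-A the ratio was 1.14 at St16 and 1.23 at AFT. Abd-B at AFT was highest in col + lbe, at 15.6 TPM against 12.8 in the control (0.26), where all genes had a median of 0.11.

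After each stage's mean was subtracted, likeness over the 10 means was described with Pearson's r, without a test. The head genes had r = 0.69 for lab and pb, 0.66 for lab and Dfd and 0.70 for pb and Dfd. Values of like size were also found outside the head genes. These were 0.68 for Dfd and Abd-B, 0.67 for Scr and Abd-B and 0.61 for Scr and Ubx. The highest value among the 8 was 0.80, for abd-A and Abd-B. The highest value of Antp with another Hox gene was 0.23, with Scr. These means share their libraries and the scaling of each column. Among 3789 named genes at 5 TPM or more in every mean, those most like lab were viaf (0.966) and papi (0.953). The genes most like Abd-B were Pex2 (0.994) and Gcn5 (0.985), and most like abd-A were Nipsnap (0.949) and GlcAT-S (0.947). Ubx was most like MetRS (0.900) and Glg1 (0.887), Scr like Not10 (0.943) and RpL26 (0.937), and Antp like Nsf2 (0.825) and Dp1 (0.825). Nearest to pb were robo3 (0.946) and Naa60 (0.944), and to Dfd pck (0.966) and yki (0.959). Each pair of genes was the highest of 3789 candidates.

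Hox proteins bind DNA together with cofactors, of which homothorax (hth) had the largest differences between genotypes. At St16 hth was at 107 TPM for the driver alone, 109 under col, 127 under lbe, 193 under col + lbe and 171 under ap + eya. At AFT it was at 64.1, 106, 119, 70.1 and 113 TPM in the same order. In col + lbe hth was thus the highest of the 5 at St16 (0.84) and next to the control at AFT (0.13). In col and lbe it was inside 1.5-fold at St16 (0.02 and 0.25) and past it at AFT (0.71 and 0.88). In ap + eya it was past 1.5-fold at both stages (0.67 and 0.80). Its partner extradenticle (exd) was at 104 to 109 TPM in the 5 means of St16, a far narrower range. At AFT exd was at 56.3 TPM for the driver alone, 45.3 under col, 40.5 under lbe, 54.4 under col + lbe and 43.2 under ap + eya.

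**Figure D4:**
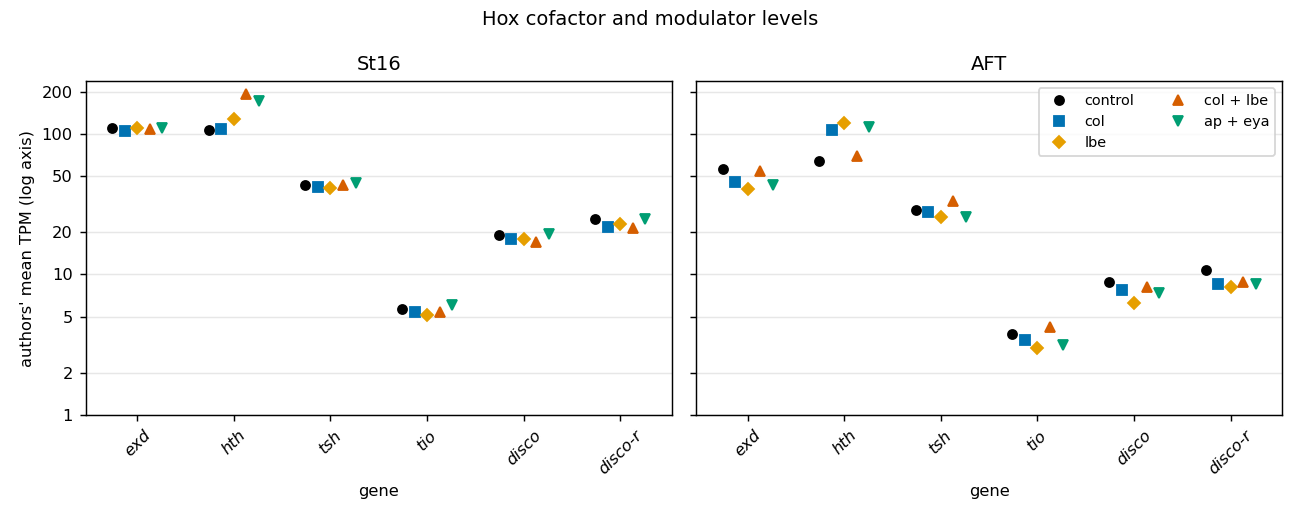
Authors' mean TPM (log axis) of 6 Hox cofactor and modulator genes in the 5 genotypes at St16 (left) and AFT (right). At St16 hth is highest in col + lbe (193 TPM) and ap + eya (171); at AFT it is 64.1 TPM in the control, 70.1 in col + lbe and 106 to 119 in the other 3.

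The zinc finger genes teashirt (tsh), which acts with trunk Hox genes, tiptop (tio), disco and disco-r completed the list of 6. None was 1.5-fold apart from the control in any misexpression at either stage. In the control all 6 were lower at AFT, 2 of them past 2-fold where 24.8% of all genes were, with a median of -0.84 against -0.37 for all genes. These 2 were disco-r, at 25.0 TPM and then 10.7 (-1.15), and disco, at 19.2 and then 8.77 (-1.05).

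Polycomb group genes keep Hox genes silent outside their segments, and trithorax group genes keep them active. In the control 12 of 24 Polycomb group genes and 12 of 20 trithorax group genes were at least 2-fold lower at AFT, where 24.8% of all genes were. None of either was 2-fold higher, where 19.0% of all genes were. The list medians were -0.95 and -1.09, against -1.33 for the 8 Hox genes and -0.37 for all genes. Within the Polycomb list lolal was at 357 TPM in the St16 mean against 26.1 in the AFT mean (-3.73), ph-d at 10.3 and 2.44 (-1.72) and Pcl at 10.9 and 2.87 (-1.63). From the trithorax list, the chromatin remodelling genes Bap111 (32.1 and 5.54 TPM, -2.34), mor (30.6 and 6.86, -2.01) and Bap60 (46.2 and 11.3) had the largest differences. Against the control, 0 of 24 Polycomb genes passed 1.5-fold at either stage, where 2.13% to 19.2% of all genes did. Of the 20 trithorax genes 7 were past 1.5-fold higher in col + lbe at AFT, where 9.98% of all genes were. The median of the 20 was 0.37 against 0.11 for all genes. Among these, ash2 was at 28.0 TPM against 10.8 (1.30), Bap111 at 10.4 against 5.54 (0.80) and mor at 12.2 against 6.86 (0.75). In ap + eya at AFT 1 of the 20 was past 1.5-fold lower, where 8.20% of all genes were, so this count is near that share. It was the GAGA factor gene Trl, at 25.1 TPM against 39.6 (-0.64).

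Genes described elsewhere as Hox targets were also lower at the later stage. Of 17 that could be compared in the control, 13 were at least 2-fold lower at AFT, where 24.8% of all genes were, and none higher, with a median of -1.32 against -0.37. The cell death gene reaper (rpr), a described target of Dfd and Abd-B, was at 220 TPM in the St16 mean against 6.63 in the AFT mean (-4.85). Another death gene, grim, was at 17.7 and 0.747 TPM (-3.42), and the salivary gland gene PH4alphaSG1 at 15.9 and 0.589 (-3.41). Against the control at St16, none of 17 targets was 1.5-fold apart in any misexpression. At AFT, 3 of 15 were past 1.5-fold higher in col + lbe and 1 lower, with 1 of 14 higher for col, 1 of 15 for lbe and 1 of 15 for ap + eya, where 1 was lower. These counts are near the shares of all genes apart in either direction, 19.2% for col + lbe, 12.7% for col, 12.5% for lbe and 12.4% for ap + eya. At that stage rpr was at 13.3 TPM in col + lbe against 6.63 (0.91), and the transcription factor gene grn at 9.62 against 15.0 (-0.59). The appendage gene Dll, which the bithorax genes repress in the abdomen, was at 4.04 TPM in ap + eya against 6.75 (-0.62) at AFT.

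The tissue marker lists differed in both directions between stages. Of 11 muscle markers in the control 6 were at least 2-fold higher at AFT, with a median of 1.01, and of 8 gut and fat body markers 6 were, with a median of 3.71. Of all genes 19.0% were 2-fold higher and 24.8% lower. The 11 neuron markers had a median of 0.30, with 1 past 2-fold higher and 2 lower, neither count above those shares. Of 9 glia markers 4 were 2-fold lower and 3 higher, with a median of -0.46, and of 9 epidermis and cuticle markers also 4 and 3, with a median of -0.51. TPM is a share of a fixed total, and the part of these tissues in the lower Hox values was not tested.

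**Figure D5:**
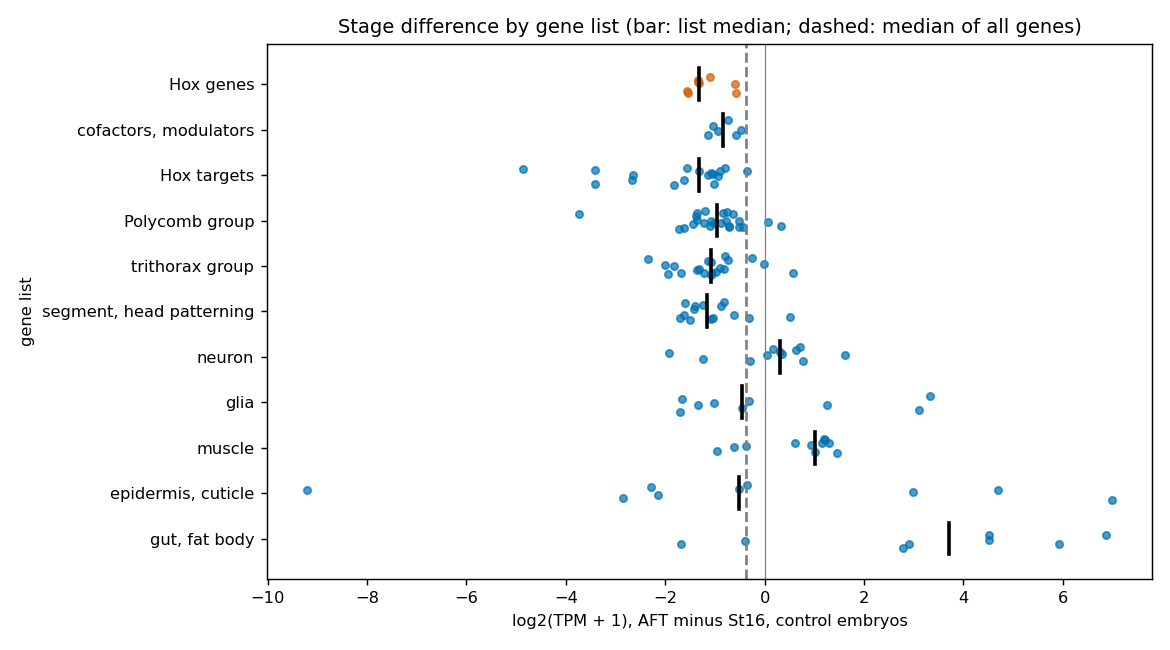
Difference of log2(TPM + 1), AFT minus St16, in control embryos for single genes (points) by gene list, with list medians (bars) and the median of all genes (dashed, -0.37). Hox genes (median -1.33) and Hox targets (-1.32) lie to the left of that line, and muscle (1.01) and gut and fat body (3.71) medians to the right.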

How the data were processed

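Whole-embryo RNA was sequenced in 3 samples per genotype and stage. The submitters' processing notes name kallisto 0.43.1 and BDGP6; the sources used here do not give the step from transcripts to genes. The deposited TPM tables have a single column per genotype. These hold the authors' means of 3 samples: after multiplication by 3, the share of values from 10 to 100 TPM that were whole to within 0.02 of the last of 4 decimals was 56.2% at St16 and 54.5% at AFT, and 19.9% to 28.0% with other factors from 1 to 5. The authors' deposited log2 fold changes served only to see whether Hox genes were in those lists. Differences of log2(TPM + 1) were computed from the TPM over all genes at 1 TPM or more in either group, with Python 3.11.15, pandas 2.3.3 and numpy 2.4.6, by code tested on simulated data. No test was possible, and TPM keeps no depth, so no interval is given. The members and the lists were chosen with earlier results of these data known. All 8 Hox genes are named; from any other list at most 3 genes per comparison are, those with the largest difference past 1.5-fold and at least 5 TPM in a group, and the other list genes named (hth, exd, tsh, tio and the complex neighbours) were chosen after their values were seen. Other pseudocounts, filters, scalings and a reference other than the control were tried. Gene positions come from the BDGP6.54 annotation, which held 12874 of 14040 St16 symbols and all 8 Hox genes.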

Additional observations from a re-analysis of the deposited data

How the results depend on the processing

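No replicate could be left out, and no paired analysis was possible because each column is a mean over replicates and the labels give no replicate numbers that pair samples. Without a spread, a value was taken as moved at 0.1 or more on the log2 scale. Counts of Hox genes past 1.5-fold against the control were 0 or 1 under every setting tried. The 1 lower gene in col + lbe at St16 (pb) became 0 with a pseudocount of 5, quantile normalisation, a filter of 5 TPM or the median of the other 4 groups as reference. The 1 in col at AFT (lab) became 0 with a pseudocount of 5, either rescaling or that reference. With a pseudocount of 0.1 or a plain ratio, 1 gene was higher in col + lbe at AFT (Scr) and 1 lower in ap + eya (pb). The AFT medians against the control became -0.00462 in lbe and -0.00371 in ap + eya after median-ratio rescaling, and -0.0283 in col, 0.00605 in lbe and 0.0205 in ap + eya after quantile normalisation. Stage medians stayed below 0 under every setting tried. In control, col, lbe, col + lbe and ap + eya they were -1.09, -1.03, -1.09, -0.88 and -1.16 with a pseudocount of 5, and -0.99, -0.94, -0.92, -0.90 and -0.93 after median-ratio rescaling, with 2, 2, 3, 4 and 3 genes past 2-fold. Quantile normalisation gave -1.13 in control, -1.08 in col, -1.09 in lbe and -1.10 in ap + eya. A plain ratio gave -1.39 in col and -1.44 in lbe, a pseudocount of 0.1 gave -1.42 in lbe, and a filter of 5 TPM, which drops pb, gave -1.21 in col + lbe. The cause of these shifts was not tested.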

Other observations

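Segment and head patterning genes, which act with or before the Hox genes in the early embryo, were mostly lower at AFT: in the control 9 of 14 were at least 2-fold lower, where 24.8% of all genes were, and none higher. Their median was -1.16 against -0.37 for all genes. In col + lbe at AFT the forkhead genes slp1 and slp2, which pattern segments and later act in the nervous system, were higher than in the other genotypes. The AFT level of slp1 was 13.2 TPM in col + lbe, where the control had 4.62, col 3.61, lbe 2.94 and ap + eya 4.70. That of slp2 was 7.40 TPM in col + lbe, where the control had 3.00, col 3.09, lbe 2.85 and ap + eya 3.17. The differences from the control were 1.34 and 1.07, and no other gene of the 13 compared was past 1.5-fold. Of all genes 9.98% were past 1.5-fold higher in this comparison and 9.17% lower, so the count for the list is near that share. At St16 slp1 had 17.2 TPM both in the control and in col + lbe. The gene ems belongs to this list and to the Hox target list.

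For joint misexpression, the level in col + lbe minus those in col and lbe plus the control gave a non-additive value on the log2 scale. At AFT it was 0.61 for Dfd, 0.54 for lab, 0.44 for abd-A, 0.43 for pb and 0.38 for Abd-B. For Scr it was 0.27, for Ubx 0.16 and for Antp -0.05, where all genes had a median of 0.31. Of all genes 29.6% were at least as far from 0 as Dfd, and 35.7% as lab. The control mean is added in this value, and for lab it was 13.1 TPM against 8.40 in col, 9.76 in lbe and 9.43 in col + lbe. At St16 the non-additive value was 0.26 for lab and lay between -0.03 and 0.18 for the other 7.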
